A study of Rattus norvegicus with 13 samples.

Results

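Mammary carcinomas of rats irradiated before puberty were set against normal mammary tissue, gene by gene. The set was defined by the irradiation and tissue labels and holds 7 of the 13 arrays in the series: 4 IR-3W carcinomas and 3 normal tissues. The IR-3W carcinomas came from female Sprague-Dawley rats given 2 Gy of whole-body 137Cs gamma rays at 0.6 Gy/min when 3 weeks old. From 9 weeks of age these rats ate a diet with 23.5% corn oil, and palpable tumours were taken at 50 weeks. The normal mammary tissue came from non-irradiated females and is described once as age-matched and once as taken at 7 weeks of age, so age, diet and irradiation may all differ between the groups together with tumour state. A further 6 carcinomas came from rats irradiated at 7 weeks (IR-7W), with the same labelled dose, dose rate, diet and age at collection. They served here only to estimate the spread and to show whether a gene also differed between the carcinoma groups. Nothing in the labels states whether each array is a different rat, so the p-values cover only the variation seen between these arrays, which may be technical.

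The rat mammary gland is a branched epithelium of inner luminal cells, which make milk, and outer basal or myoepithelial cells, which contract. It lies in a pad of fat cells, fibroblasts and vessels. Fat cells store and break down triglyceride, luminal cells secrete caseins and whey proteins under prolactin, and fibroblasts lay down the collagens and proteoglycans of the matrix. RNA was taken from whole pieces of frozen tissue, so fewer cells of a type and less RNA per cell cannot be told apart.

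Each array gave 1 brightness per probe, expressed as log2 of the signal relative to that array's 75th percentile. A value of 0 is therefore the 75th percentile, and a difference of 1 is a 2-fold difference. The 75th percentile itself was brighter on the IR-3W arrays, at 276 to 1049 scanner units, than on the normal arrays, at 82.3 to 179 units. Probes well above background made up 58.0 to 69.1% of an IR-3W array and 48.7 to 54.2% of a normal array. The slope of the spike-in controls was 0.924 to 0.937 on IR-3W arrays and 0.759 to 0.845 on normal arrays. The normal arrays share 1 slide and 1 scan that hold no carcinoma, so slide and scan cannot be told apart from tissue. All 5 luminal markers checked (Krt8, Krt18, Krt19, Epcam and Cdh1) were well above background on all 7 arrays.

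Carcinoma 3 stood apart from the other 3 carcinomas. Its differences from the normal mean correlated at 0.358 to 0.448 with those of the other carcinomas, which correlated at 0.575 to 0.790 with each other. Among 15542 genes well above background on all 7 arrays, 1047 (6.74%) lay further than 4-fold from the mean of the other carcinomas in carcinoma 3. The numbers were 425 in carcinoma 1, 528 in carcinoma 2 and 191 in carcinoma 4. The carcinomas varied more among themselves than the normal tissues did: the median standard deviation of a gene was 0.62 over the 4 IR-3W carcinomas and 0.38 over the 3 normal tissues. The IR-3W arrays lie on more than 1 slide and the normal arrays on 1, and the part of slide in these spreads was not tested. Without carcinoma 3 the median over carcinomas was 0.47. Its array was also the dimmest of the 4, with a 75th percentile of 276 scanner units against 572 to 1049 on the others, 58% of probes well above background against 66.2 to 69.1%, and the lowest spike-in slope. The lowest signal well above background stood at -4.17 on that array and at -5.88 to -5.31 on the other carcinoma arrays. The part of array brightness in the results that rest on carcinoma 3, among them those on fat cell, milk and basal genes, was not tested. Most counts are therefore given with and without it.

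Of 25343 genes tested with limma over all 13 arrays, 14.6% passed an adjusted p of 0.05 (Benjamini-Hochberg) in IR-3W carcinomas against normal tissue. Those called higher made up 9.25% and those called lower 5.35% of all genes tested. Among the 10515 genes with a symbol, calls ran the other way, with 6.5% higher and 7.44% lower. All 4 carcinomas lay above all 3 normal tissues at 13.4% of genes and below them at 11.4%. Among the 15542 genes well above background on all 7 arrays, 7.11% were called higher and 6.75% lower. Without carcinoma 3, 11% of all genes were called higher and 8.63% lower, which is the background for counts without it. The shares with all 4 carcinomas are the background against which the counts for each gene group are given. Every list member has a symbol, so the 6.5% higher and 7.44% lower among such genes are the closer background for a list.

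**Figure D1:**
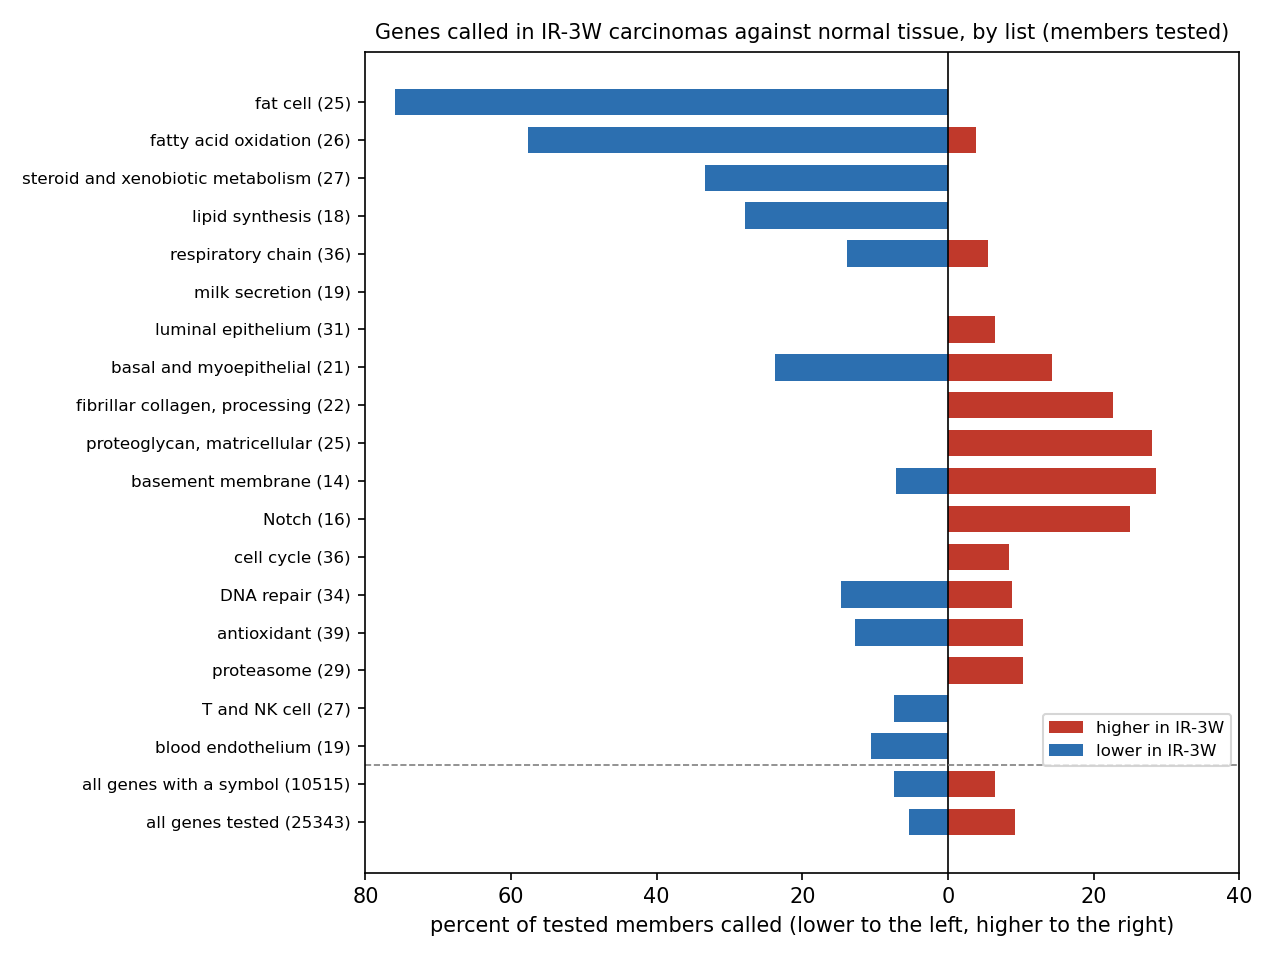
Percent of the tested members of each gene list that were called lower (bars to the left) or higher (bars to the right) in IR-3W carcinomas against normal tissue, with the number of members tested in parentheses. The 2 lowest rows, under the dashed line, are the background of all genes. The fat cell and fatty acid oxidation lists reach 76% and 57.7% lower, against 5.35% of all genes and 7.44% of genes with a symbol.

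Most fat cell genes were lower in the IR-3W carcinomas. Of 25 tested members of the fat cell list, 19 (76%) fell and 0 rose, and the median difference was -3.21, against -0.01 over all genes. Without carcinoma 3, 23 of 25 fell and the median was -4.16. The list's summed signal was 28.9 to 338 times the 75th percentile in the carcinomas and 555 to 632 times in normal tissue. Carcinoma 3 had the highest sum among the carcinomas.

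Some of the genes that fell furthest were close to background in carcinomas or not well above it. Adipoq, the gene of adiponectin, a hormone that fat cells release, had -5.05, -3.81, -6.36 and -4.93 in the carcinomas, against 5.12, 5.0 and 5.58 in normal tissue. The difference of -10.27 ± 1.02 (SE) was the most negative of all genes tested (adjusted p = 4.64e-05), and 3 of 4 carcinomas were well above background. With normexp background correction, which changes dim probes most, the difference was -6.63. Grifin, a galectin-related protein first known from the lens, had -5.62, -7.19, -3.23 and -6.59 in the carcinomas, against 3.69, 3.73 and 3.58 in normal tissue, a difference of -9.33 ± 0.90 (adjusted p = 3.45e-05). Since 1 of 4 carcinomas was well above background, the size of that difference is uncertain, and with normexp it was -5.02. Abcd2, a peroxisomal transporter of very long-chain fatty acids, was not well above background in any carcinoma (-6.32, -8.07, -6.34 and -6.63) and had 1.97, 1.59 and 2.26 in normal tissue. It was at least 140-fold lower in the carcinomas (adjusted p = 1.4e-06), whereas its normexp difference of -3.55 on the log2 scale was smaller than that bound.

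Aqp7, the glycerol channel of fat cells, separated carcinoma 3 from the rest. Its levels were -7.28, -7.41, -0.85 and -7.39 in the carcinomas, against 2.44, 2.05 and 1.92 in normal tissue (difference -7.87 ± 1.25, adjusted p = 0.00124). Carcinoma 3 was the only carcinoma in which it was well above background. Cidec, a lipid droplet protein, had -4.42, -5.08, -1.49 and -3.45 in the carcinomas, against 3.60, 2.79 and 2.31 in normal tissue. Pck1, the enzyme that fat cells use to make glycerol for triglyceride, had -4.49, -4.54, -4.59 and -4.06 in the carcinomas, against 2.47, 1.64 and 1.82 in normal tissue. The value in carcinoma 3 lies under -4.17, the lowest signal well above background on that array, so its level there is uncertain.

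Pparg, Mrap, Npr3, Rbp4 and Nnat fell as well. Pparg, the master transcription factor of fat cells, had -3.90, -2.86, -0.71 and -2.97 in the carcinomas and 1.12, 0.67 and 0.96 in normal tissue (difference -3.53 ± 0.59, adjusted p = 0.0017). Mrap, an accessory protein of melanocortin receptors, had -4.80, -5.06, -5.77 and -2.85 in the carcinomas and 0.90, 0.24 and 1.19 in normal tissue (difference -5.40, adjusted p = 0.000256). Npr3, the clearance receptor for natriuretic peptides, had -2.44, -4.47, -2.34 and -2.71 in the carcinomas and 1.88, 0.82 and 1.33 in normal tissue (difference -4.33, adjusted p = 0.00013). In none of these did the groups overlap. Rbp4, the carrier of retinol in blood, had -0.43, -3.87, -0.25 and -3.76 in the carcinomas and 2.80, 3.29 and 3.56 in normal tissue (adjusted p = 0.00274). Nnat, an imprinted gene of the endoplasmic reticulum, fell by 4.55 (adjusted p = 0.000395).

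Sucnr1, the succinate receptor, and Slc36a2, an amino acid transporter, were not well above background in any carcinoma. Slc36a2 was at least 20.2-fold lower (adjusted p = 1.39e-05) and Sucnr1 at least 10.4-fold lower (adjusted p = 1.03e-05). With normexp the log2 differences of Slc36a2 and Sucnr1 were -1.56 and -1.12, each smaller than its bound. The secreted protein Cytl1 fell by 6.16 (adjusted p = 0.000759), with 2 of 4 carcinomas well above background. Car3, a carbonic anhydrase abundant in fat, fell by 7.21 (adjusted p = 0.00545). In the authors' deposited log2 values the call for Car3 was lost (adjusted p = 0.0639), and with normexp that for Sucnr1 was lost (adjusted p = 0.135).

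Fabp4 and Cd36 did not fall evenly. Fabp4, the fatty acid binding protein of fat cells, had 0.29, -0.15, 5.26 and 0.05 in the carcinomas, against 5.51, 5.58 and 5.88 in normal tissue. Cd36, a fatty acid receptor also made by the milk-secreting epithelium, had -0.30, -1.05, 4.94 and 0.09 in the carcinomas, against 5.42, 5.33 and 5.17 in normal tissue. In both, carcinoma 3 was close to normal tissue and the other carcinomas were far below it. Both passed the test (Fabp4 adjusted p = 0.0152, Cd36 adjusted p = 0.0358). The call for Fabp4 was lost without normal tissue 2 (0.0509) and in the fit of the 7 arrays alone (0.0785). That for Cd36 was lost in the fit of the 7 arrays alone (0.0821), with normexp (0.0556) and without any single array other than carcinoma 3 (0.078 to 0.103).

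**Figure D2:**
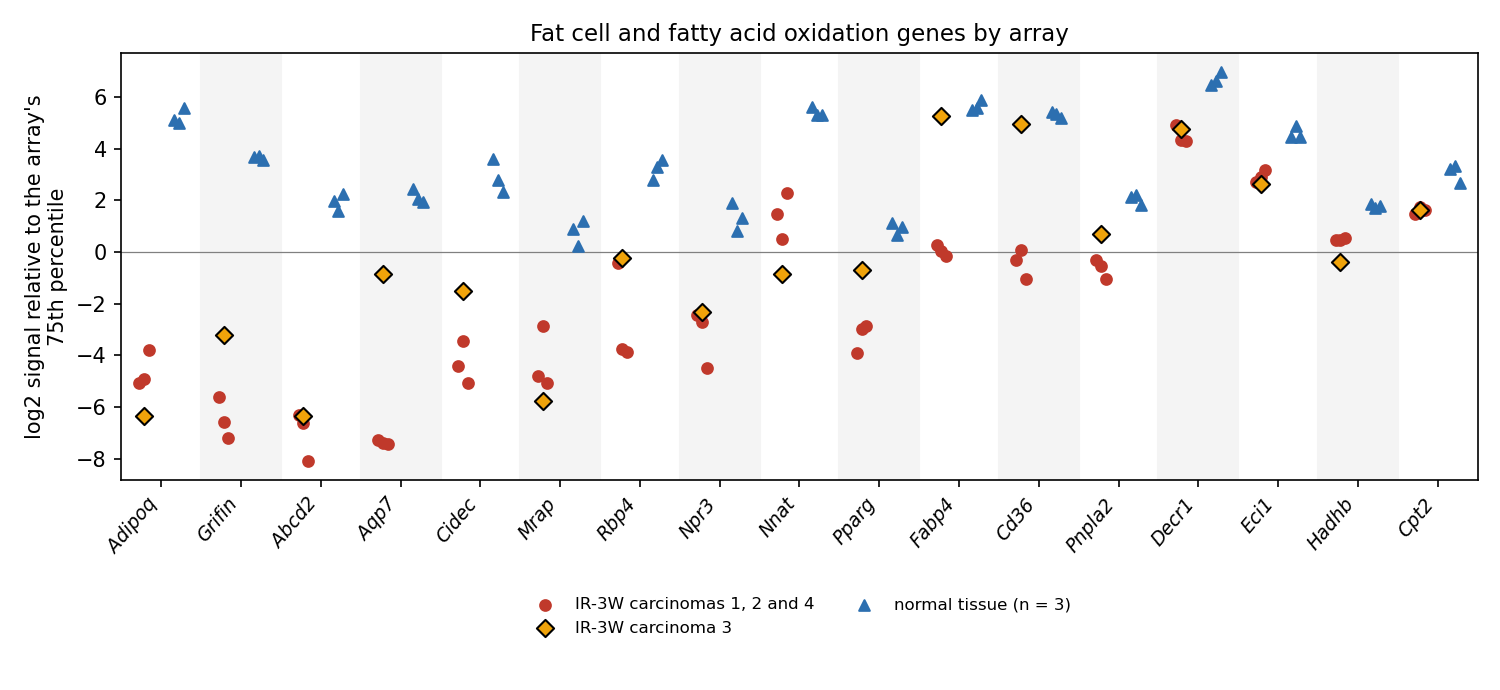
Log2 signal relative to each array's 75th percentile for fat cell and fatty acid oxidation genes, 1 point per array, with IR-3W carcinomas left and normal tissue right in each column. All 4 carcinomas lie below all 3 normal tissues in every gene shown; carcinoma 3 (diamond) lies close to normal tissue in Fabp4, at 5.26 against 5.51 to 5.88.

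Genes of triglyceride synthesis and breakdown fell in part. Of 18 lipid synthesis genes tested, 5 (27.8%) fell and 0 rose, and without carcinoma 3, 8 fell. Dgat1 and Dgat2 catalyse the last step of triglyceride synthesis. Dgat1 had 2.24, 2.22, 3.26 and 2.28 in the carcinomas and 4.22, 4.05 and 3.92 in normal tissue (difference -1.57 ± 0.28, adjusted p = 0.00276). Dgat2 fell by 3.18 (adjusted p = 0.00535), and its other probes differed by -1.76 and -2.46. Pnpla2, the lipase that takes the first fatty acid from triglyceride, had -0.29, -1.04, 0.70 and -0.54 in the carcinomas and 2.13, 2.22 and 1.81 in normal tissue (adjusted p = 0.00223). Cfd, the complement protease adipsin that fat cells secrete, fell by 3.21 (adjusted p = 0.000781).

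Fatty acid oxidation was the next group with many lower members. Of 26 tested genes of mitochondrial and peroxisomal fatty acid oxidation, 15 (57.7%) fell and 1 rose, and the median difference was -1.08. Unlike the fat cell list, it was similar in the 4 carcinomas, with medians of -0.83, -1.23, -1.05 and -1.26. Without carcinoma 3, 18 fell. The summed signal was 216 to 336 in the carcinomas and 541 to 614 in normal tissue.

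The lower genes described here act at several steps of the pathway. Cpt1a, which commits fatty acids to the mitochondrion, had 1.52, -0.06, 0.25 and 0.88 in the carcinomas and 2.31, 2.52 and 2.21 in normal tissue (difference -1.70 ± 0.33, adjusted p = 0.00482). Cpt2, which releases them inside, had 1.46, 1.62, 1.62 and 1.76 in the carcinomas and 3.23, 3.33 and 2.69 in normal tissue (difference -1.47 ± 0.22, adjusted p = 0.000798). Its 4 carcinomas differed from each other by less than the distance to the nearest normal tissue. Hadha and Hadhb, the subunits of the trifunctional protein that carries out the last steps, differed by -1.14 (adjusted p = 0.00419) and -1.52 (adjusted p = 0.00259). Hadhb was lowest in carcinoma 3, at -0.40, with 0.48, 0.56 and 0.45 in the others and 1.85, 1.71 and 1.80 in normal tissue.

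Decr1 and Eci1 handle unsaturated fatty acids. Decr1 had 4.93, 4.28, 4.77 and 4.33 in the carcinomas and 6.47, 6.62 and 6.95 in normal tissue (difference -2.10 ± 0.32, adjusted p = 0.000895). Eci1 fell by 1.74 (adjusted p = 0.00261). Catalase (Cat), which clears peroxisomal hydrogen peroxide, fell by 2.17 (adjusted p = 0.00361). Acadsb, which acts on branched short acyl chains from isoleucine, fell by 1.49 (adjusted p = 0.00403), a call that normexp lost (adjusted p = 0.244).

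Ucp3, a mitochondrial carrier, fell as well. It had -4.0, -4.80, 1.29 and -3.49 in the carcinomas and 2.37, 2.86 and 3.11 in normal tissue (adjusted p = 0.00961), with carcinoma 3 nearest to normal tissue.

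Fewer of the other mitochondrial energy genes passed the test. Of 36 respiratory chain genes, 5 (13.9%) fell and 2 (5.56%) rose, against 7.44% and 6.5% of genes with a symbol. Without carcinoma 3 the counts were 9 and 1. Uqcrfs1, the iron-sulphur subunit of complex III, had 4.50, 4.27, 4.49 and 3.87 in the carcinomas and 5.71, 5.81 and 5.56 in normal tissue (difference -1.41 ± 0.23, adjusted p = 0.00148). Of 20 citric acid cycle and pyruvate dehydrogenase genes, 0 fell and 1 rose, and without carcinoma 3, 5 fell and 1 rose. The gene that rose was Pdha1, the catalytic subunit through which pyruvate enters the cycle, with 1.75, 1.75, 2.70 and 1.22 in the carcinomas and -1.92, -1.03 and -0.55 in normal tissue (difference 3.02 ± 0.36, adjusted p = 0.000177). Of 32 glycolysis and hypoxia genes, 3 (9.38%) rose and 0 fell. Called higher were 9.25% of all genes and 6.5% of genes with a symbol. Without carcinoma 3, 10 of the 32 rose, against 11% of all genes. Their medians were 0.44, 1.57, -0.58 and 0.79 in the 4 carcinomas, lowest in carcinoma 3. Sirt5, a mitochondrial deacylase, was not well above background in any normal tissue and was at least 14.2-fold higher in the carcinomas (adjusted p = 1.79e-05). With normexp its log2 difference was 1.65, smaller than that bound.

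Genes of steroid and xenobiotic metabolism fell in part. Of 27 tested, 9 (33.3%) fell and 0 rose, and without carcinoma 3 the counts were 12 and 1. Fmo1 and Fmo2, flavin monooxygenases, differed by -5.20 (adjusted p = 0.00419) and -4.41 (adjusted p = 0.00422), each well above background in 3 of 4 carcinomas. Cyp4b1, a cytochrome P450, had -5.01, -4.51, -0.21 and -4.25 in the carcinomas and 2.45, 0.47 and 1.06 in normal tissue (adjusted p = 0.00825), again with carcinoma 3 nearest to normal tissue. Ces1d, a carboxylesterase of fat and liver, fell by 6.53 (adjusted p = 0.00482). Ephx2, the soluble epoxide hydrolase, fell by 1.81 (adjusted p = 0.00712). The call for Ces1d was lost in the authors' deposited log2 values (adjusted p = 0.0767) and that for Ephx2 in the fit of the 7 arrays alone (adjusted p = 0.0585).

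Ghr, the growth hormone receptor, had -1.30, -0.84, -2.16 and -0.91 in the carcinomas and 2.54, 2.42 and 2.81 in normal tissue (difference -3.89 ± 0.41, adjusted p = 7.62e-05). Its other probes differed by -3.30 and -3.27. Rdh10, which oxidises retinol, was not well above background in any normal tissue and was at least 2.37-fold higher in the carcinomas (adjusted p = 0.00784). With normexp its difference was 0.15 (adjusted p = 0.81).

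Milk genes separated the carcinomas from each other. Among genes with a symbol and well above background in all 4, the 8 with the largest standard deviation over the carcinomas were the milk genes Glycam1, Csn2, Wap and Csn1s2a, and Csap1, Wfdc3, Pcp4 and Cidea. The median difference of the 19 tested milk genes from normal tissue was -3.18 in carcinoma 1, -3.10 in carcinoma 2, 1.71 in carcinoma 3 and -1.01 in carcinoma 4. With limma 0 of the 19 passed over the 4 carcinomas, 2 had an unadjusted p under 0.05, and 6 fell without carcinoma 3.

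Casein genes are switched on in luminal cells by prolactin through the transcription factor STAT5, whose core consensus is TTCNNNGAA. The promoter windows of the milk list were therefore searched for that motif, which reads the same on both strands, in the RefSeq sequence of build GRCr8. Each window ran from 250 bases before to 50 bases after the annotated start. The motif was found in 5 of 20 milk gene windows looked up, and in 2970 of 33469 windows of all genes (8.87%). The 5 stretches are shown because most of these genes differed widely between the carcinomas (Csn1s1 least), with the motif in capitals:
Csn2: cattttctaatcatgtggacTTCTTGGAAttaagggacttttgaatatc
Csn1s1: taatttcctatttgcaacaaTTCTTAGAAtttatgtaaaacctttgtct
Csn1s2a: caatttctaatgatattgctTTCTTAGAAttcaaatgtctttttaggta
Csn1s2b: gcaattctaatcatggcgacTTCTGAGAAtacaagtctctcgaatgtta
Glycam1: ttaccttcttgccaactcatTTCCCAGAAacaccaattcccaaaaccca

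The casein stretches lie at chr14:20601707-20601755 on the plus strand (Csn2) and, on the minus strand, at chr14:20638921-20638969 (Csn1s1), chr14:20574545-20574593 (Csn1s2a) and chr14:20545690-20545738 (Csn1s2b). The Glycam1 stretch lies at chr7:136561446-136561494 on the minus strand. The motif began at base -97 from the annotated start in Csn2, -100 in Csn1s1 and Csn1s2b, -102 in Csn1s2a and -175 in Glycam1. In the casein genes it thus stood at almost the same distance from the start. The windows of Csn3, Wap and Lalba did not hold these letters. A match is a description of the sequence and does not show that a factor binds there.

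Csn2, which encodes beta-casein, had -0.94, 2.47, 10.88 and 7.69 in the carcinomas, against 9.42, 9.53 and 9.26 in normal tissue. Carcinoma 3 was above normal tissue, carcinoma 4 somewhat below it, and carcinomas 1 and 2 far below. Glycam1, a mucin-like milk protein, split the carcinomas in the same way, with -0.60, -1.57, 10.82 and 4.87 in the carcinomas against 9.56, 9.40 and 9.43 in normal tissue. Without carcinoma 3 both passed the test, at -6.33 for Csn2 (adjusted p = 0.0252) and -8.56 for Glycam1 (adjusted p = 0.00273), whereas with it they did not (-4.38, adjusted p = 0.189, and -6.08, adjusted p = 0.0937).

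Wap, the whey acidic protein, had 0.49, 0.23, 10.33 and 6.37 in the carcinomas and 6.17, 6.80 and 6.71 in normal tissue (adjusted p = 0.503). Csn1s2a, an alpha-casein, had -0.91, 1.91, 9.38 and 7.10 in the carcinomas and 5.09, 5.31 and 5.64 in normal tissue (adjusted p = 0.772). In both genes carcinoma 3 was above normal tissue, carcinomas 1 and 2 were below it, and carcinoma 4 lay within its range for Wap and above it for Csn1s2a. Csn1s2b, also an alpha-casein, was well above background in 1 carcinoma and 1 normal tissue. It stood at 8.70 in carcinoma 3, with -7.70, -8.18 and -7.60 in the others and -3.83, -3.40 and -4.74 in normal tissue.

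The other caseins and alpha-lactalbumin had narrower ranges. Csn1s1 had 6.21, 7.22, 10.07 and 8.20 in the carcinomas and 7.54, 7.49 and 7.88 in normal tissue. Csn3, the micelle-stabilising kappa-casein, had 6.54, 7.09, 9.68 and 7.52 in the carcinomas and 6.35, 6.47 and 6.79 in normal tissue. Lalba, a subunit of lactose synthase, had 6.69, 6.90, 9.99 and 7.93 in the carcinomas and 8.21, 8.21 and 7.66 in normal tissue. All 3 were highest in carcinoma 3, and none passed the test (adjusted p = 0.806 for Csn1s1, 0.229 for Csn3 and 0.912 for Lalba).

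Wfdc3, Cidea, Abcg2, Fabp3 and Pcp4 were also highest in carcinoma 3. Wfdc3, a protein of the whey acidic protein fold, had -2.61, 1.23, 8.53 and 2.64 in the carcinomas and 6.22, 4.49 and 3.89 in normal tissue. Cidea, a lipid droplet protein needed for milk fat secretion in mice, had -2.52, -1.03, 7.09 and 0.23 in the carcinomas and 3.11, 4.87 and 2.44 in normal tissue. Abcg2, a transporter into milk, had -3.47, -3.81, 4.72 and -2.32 in the carcinomas and 2.01, 2.27 and 0.59 in normal tissue. Carcinoma 3 exceeded every normal tissue in all 3.

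Fabp3, the fatty acid binding protein of muscle and lactating gland, had -1.32, -1.80, 6.59 and 1.72 in the carcinomas and 4.25, 5.59 and 6.16 in normal tissue. Pcp4, a calmodulin-binding peptide, had -1.06, -2.70, 7.07 and -1.48 in the carcinomas and 2.93, 4.16 and 4.09 in normal tissue. None of the 5 passed over the 4 carcinomas (adjusted p = 0.111 for Fabp3 to 0.44 for Wfdc3). All 5 passed as lower without carcinoma 3 (adjusted p = 0.00197 for Pcp4 to 0.0422 for Wfdc3). Csap1, annotated as a common salivary protein, was lowest in carcinoma 3, with 2.47, 7.52, -3.78 and 6.21 in the carcinomas and 0.68, 1.14 and 2.22 in normal tissue.

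**Figure D3:**
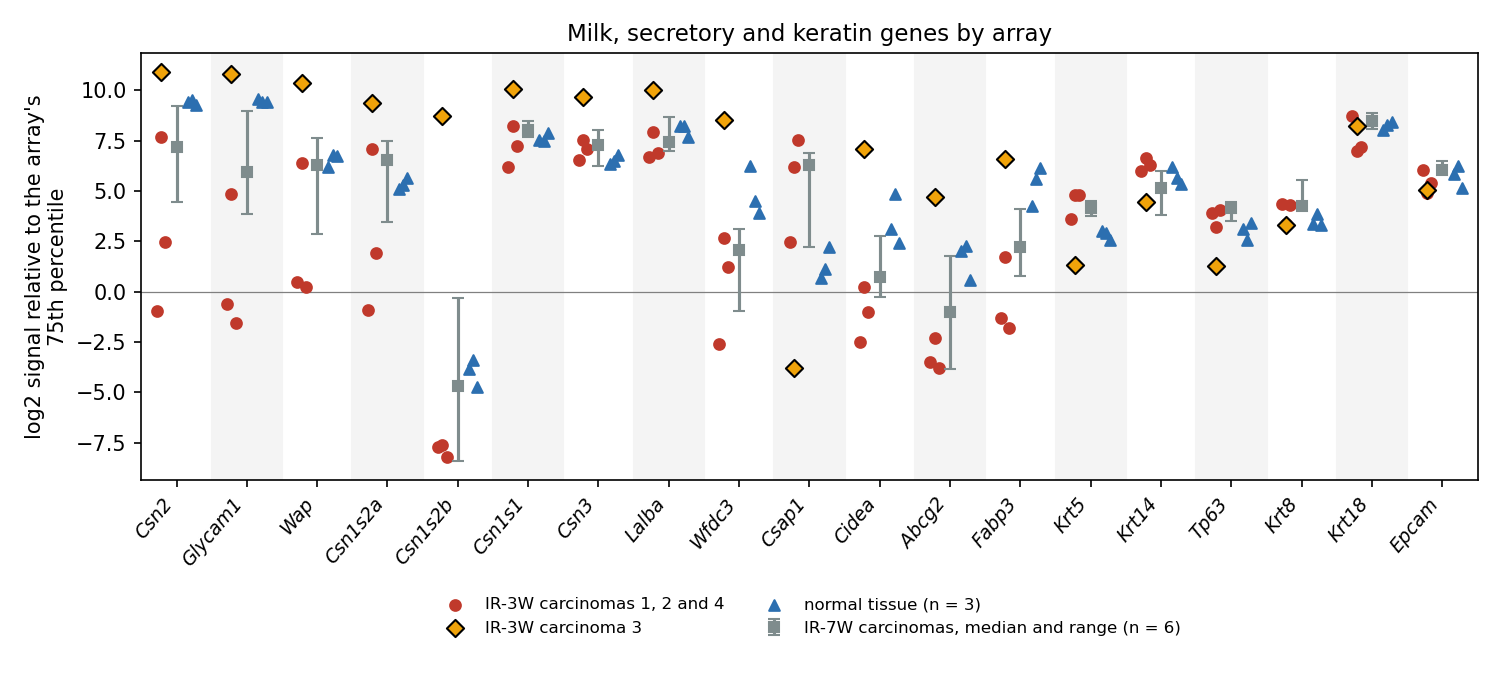
Log2 signal relative to each array's 75th percentile for milk, secretory and keratin genes, with IR-3W carcinomas left, IR-7W carcinomas (median and range, n = 6) in the middle and normal tissue right. Csn2 spans -0.94 to 10.88 over the IR-3W carcinomas, against 9.26 to 9.53 in normal tissue; carcinoma 3 (diamond) is the highest IR-3W carcinoma in the milk genes and the lowest in Krt5, Krt14 and Tp63.

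Krt5, Krt14 and Tp63, made by basal cells, were lowest in carcinoma 3, in which the milk genes were highest. Of 21 basal and myoepithelial genes tested, 3 (14.3%) rose and 5 (23.8%) fell. The shares were 9.25% and 5.35% of all genes, and 6.5% and 7.44% of genes with a symbol. Without carcinoma 3, 4 rose and 3 fell. Krt5, a basal keratin, had 3.60, 4.78, 1.34 and 4.80 in the carcinomas and 3.01, 2.90 and 2.57 in normal tissue. It did not pass over the 4 carcinomas (0.80, adjusted p = 0.462) and passed as higher without carcinoma 3 (1.56, adjusted p = 0.0105). Tp63, the transcription factor of basal cells, had 3.92, 4.07, 1.25 and 3.21 in the carcinomas and 3.09, 2.56 and 3.43 in normal tissue. Krt14, the partner of Krt5, had 6.01, 6.28, 4.44 and 6.65 in the carcinomas and 6.19, 5.64 and 5.36 in normal tissue. Carcinoma 3 was lowest in all 3. The median difference of the 21 genes from normal tissue was -1.78 in carcinoma 3 and -0.31 to 0.66 in the others.

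The contractile gene Cnn1, a marker of myoepithelium and smooth muscle, had -1.23, -2.43, -3.19 and -0.23 in the carcinomas and 0.52, 0.94 and 0.29 in normal tissue (difference -2.35 ± 0.52, adjusted p = 0.00988). It was also lower than in IR-7W carcinomas, by 2.27 (adjusted p = 0.0398). Against normal tissue the call was lost in the fit of the 7 arrays alone (adjusted p = 0.0756). The other 4 lower members were Myh11 and Mylk, the myosin heavy chain and the myosin kinase of smooth muscle, Lmod1, an actin-binding protein of smooth muscle, and Oxtr, the oxytocin receptor that makes myoepithelium contract. Myh11 had 0.37, -0.23, 1.04 and 2.18 in the carcinomas and 3.77, 4.02 and 3.57 in normal tissue (-2.95, adjusted p = 0.0409), and its other probe differed by -0.67. Oxtr differed by -3.09 (adjusted p = 0.0261), Lmod1 by -1.95 (adjusted p = 0.0389) and Mylk by -1.18 (adjusted p = 0.0487), with the other probe of Mylk at 0.40. Oxtr and Lmod1 were well above background in 2 of 4 carcinomas, and Lmod1 in 1 of 3 normal tissues. All 4 calls were lost with normexp (adjusted p = 0.101 for Myh11 to 0.525 for Lmod1) and without normal tissue 1 (0.102 to 0.129) or 2 (0.0926 to 0.15). Each was also lost without at least 1 of the carcinomas (0.0506 to 0.0937).

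Luminal genes were called higher about as often as all genes with a symbol. Of 31 tested, 2 (6.45%) rose and 0 fell, with a median of 0.02. Among genes with a symbol 6.5% were called higher and 7.44% lower. Without carcinoma 3 the counts were 4 and 1, against 11% and 8.63% of all genes. Krt8 had 4.33, 4.30, 3.33 and 3.38 in the carcinomas and 3.37, 3.83 and 3.31 in normal tissue. Krt18, its partner keratin, had 8.71, 7.19, 8.20 and 6.99 in the carcinomas and 8.04, 8.27 and 8.41 in normal tissue. Krt19, Epcam and Cdh1 (E-cadherin) differed by 0.13, -0.41 and 0.30. None of the 5 passed the test (adjusted p = 0.44 for Epcam to 0.844 for Krt19). Spint2, an inhibitor of epithelial serine proteases, had 2.24, 1.62, 2.75 and 1.64 in the carcinomas and -2.48, -1.76 and -1.06 in normal tissue (difference 3.83 ± 0.35, adjusted p = 2.74e-05). The tight junction gene Cldn9 rose by 4.29 (adjusted p = 0.000698).

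A part of the matrix genes rose in the IR-3W carcinomas, and several also differed from the IR-7W carcinomas. Of 22 tested collagens and collagen-processing genes, 5 (22.7%) rose and 0 fell, with a median of 1.21. Without carcinoma 3, 7 rose. Of 25 proteoglycans and matricellular proteins, 7 (28%) rose and 0 fell, and the counts without carcinoma 3 were 9 and 1. Between the carcinoma groups, 187 of 25344 genes differed (0.738%), with 0.588% higher and 0.15% lower in IR-3W. Of those 22 and 25 genes, 4 and 10 were higher in IR-3W than in IR-7W.

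The fibrillar collagens Col1a1, Col1a2 and Col3a1 were highest in carcinoma 3. Col1a1, an alpha chain of type I collagen, had 6.86, 6.56, 8.52 and 6.82 in the carcinomas and 4.94, 4.75 and 4.86 in normal tissue (difference 2.34 ± 0.42, adjusted p = 0.00266), and its other probe rose by 1.98. Col1a2, the partner chain, had 6.65, 6.79, 8.72 and 7.02 in the carcinomas and 4.51, 4.61 and 4.67 in normal tissue (difference 2.70 ± 0.46, adjusted p = 0.00191). Col3a1, the chain of type III collagen, had 7.33, 8.13, 9.27 and 8.49 in the carcinomas and 7.20, 7.03 and 6.66 in normal tissue (1.34, adjusted p = 0.0752), and passed without carcinoma 1 (1.67, adjusted p = 0.031). Col3a1 was higher than in IR-7W carcinomas by 2.90 (adjusted p = 0.0149).

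P4ha2 hydroxylates the prolines of collagen, and Bmp1 removes the end pieces of procollagen. P4ha2 had 3.42, 3.74, 2.72 and 3.39 in the carcinomas and 0.76, 0.75 and 1.5 in normal tissue (difference 2.31 ± 0.38, adjusted p = 0.00157). Bmp1 rose by 1.09 (adjusted p = 0.0184) and was 1.39 above IR-7W carcinomas (adjusted p = 0.0239). The call for Bmp1 against normal tissue was lost without normal tissue 2 (adjusted p = 0.0753) or 3 (0.0595) and in the fit of the 7 arrays alone (0.0928).

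The small proteoglycans of the collagen fibril differed from each other. Lum (lumican) had 3.19, 5.14, 2.33 and 5.40 in the carcinomas and -0.12, 0.43 and -0.17 in normal tissue (difference 3.97 ± 0.66, adjusted p = 0.00165). It was 3.01 above IR-7W carcinomas (adjusted p = 0.0355). Bgn (biglycan) had 7.01, 7.80, 7.88 and 8.42 in the carcinomas and 6.49, 5.93 and 5.76 in normal tissue (adjusted p = 0.00757), and was 2.19 above IR-7W carcinomas (adjusted p = 0.0154). Dcn (decorin) had 5.75, 5.64, 5.28 and 5.79 in the carcinomas and 5.66, 5.52 and 5.50 in normal tissue (0.05, adjusted p = 0.933), yet was 1.55 above IR-7W carcinomas (adjusted p = 0.0225). Pdgfra, a fibroblast receptor, differed from normal tissue by -0.20 (adjusted p = 0.726) and from IR-7W carcinomas by 1.46 (adjusted p = 0.0355).

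Aspn (asporin) had 1.52, 1.94, 0.51 and 1.49 in the carcinomas and -0.14, -1.22 and -0.01 in normal tissue (1.82, adjusted p = 0.0351), and was 3.50 above IR-7W carcinomas (adjusted p = 0.0133). Its call against normal tissue was lost without any single array other than carcinoma 3 (0.0509 to 0.159) and in the fit of the 7 arrays alone (0.0514). Postn (periostin), which links collagen to cells, had 3.98, 5.47, 5.49 and 6.01 in the carcinomas and 3.07, 2.38 and 1.64 in normal tissue (2.87, adjusted p = 0.00545), and was 2.49 above IR-7W carcinomas (adjusted p = 0.0398). Fn1 (fibronectin) had 5.36, 6.45, 4.55 and 7.03 in the carcinomas and 3.28, 3.45 and 4.16 in normal tissue (2.22, adjusted p = 0.013). It was 2.25 above IR-7W carcinomas (adjusted p = 0.0398). Its other probe differed by 0.38, and its call was lost with the mean over its probes (1.30, adjusted p = 0.171), without normal tissue 1 (0.059) or 2 (0.0548) and in the fit of the 7 arrays alone (0.0653).

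Fbn2, a fibrillin of elastic microfibrils, had -0.30, 1.0, 2.06 and 0.75 in the carcinomas and -2.12, -1.32 and -1.95 in normal tissue (2.67, adjusted p = 0.0122). It was 2.65 above IR-7W carcinomas (adjusted p = 0.0406), and its call against normal tissue was lost without normal tissue 1 (adjusted p = 0.0544). Fibin, a secreted protein, had 0.45, 1.63, -1.45 and 2.52 in the carcinomas and -2.73, -3.66 and -3.08 in normal tissue (3.94, adjusted p = 0.00528). Pdgfrl, a receptor-like protein, rose by 3.94 (adjusted p = 0.000328) and was 2.72 above IR-7W carcinomas (adjusted p = 0.0225). It was well above background in 1 of 3 normal tissues. Its other probe, well above background on all 7 arrays, differed by 0.33 (adjusted p = 0.692), so the call for Pdgfrl rests on 1 probe.

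Most calls between the carcinoma groups depended on single arrays. Of the 16 genes named here that differed between IR-3W and IR-7W carcinomas, Col3a1, Bgn and Aspn kept the call whichever of the 10 carcinomas was left out. The other 13 lost it in 3 to 8 of those 10 fits, with the highest adjusted p between 0.0949 (Dcn, Pdgfrl, Gpx7 and Gpx8) and 0.148 (Postn). On the 1 slide that holds both groups, with 2 carcinomas of each, the 16 differences had the same sign and 0 passed the test, with 699 of all genes at an unadjusted p under 0.05 in limma. There Aspn differed by 3.39, Lum by 2.53 and Col3a1 by 1.77. The arrays of that slide were part of the fit that chose the 16 genes, so the shared sign is no independent check.

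**Figure D4:**
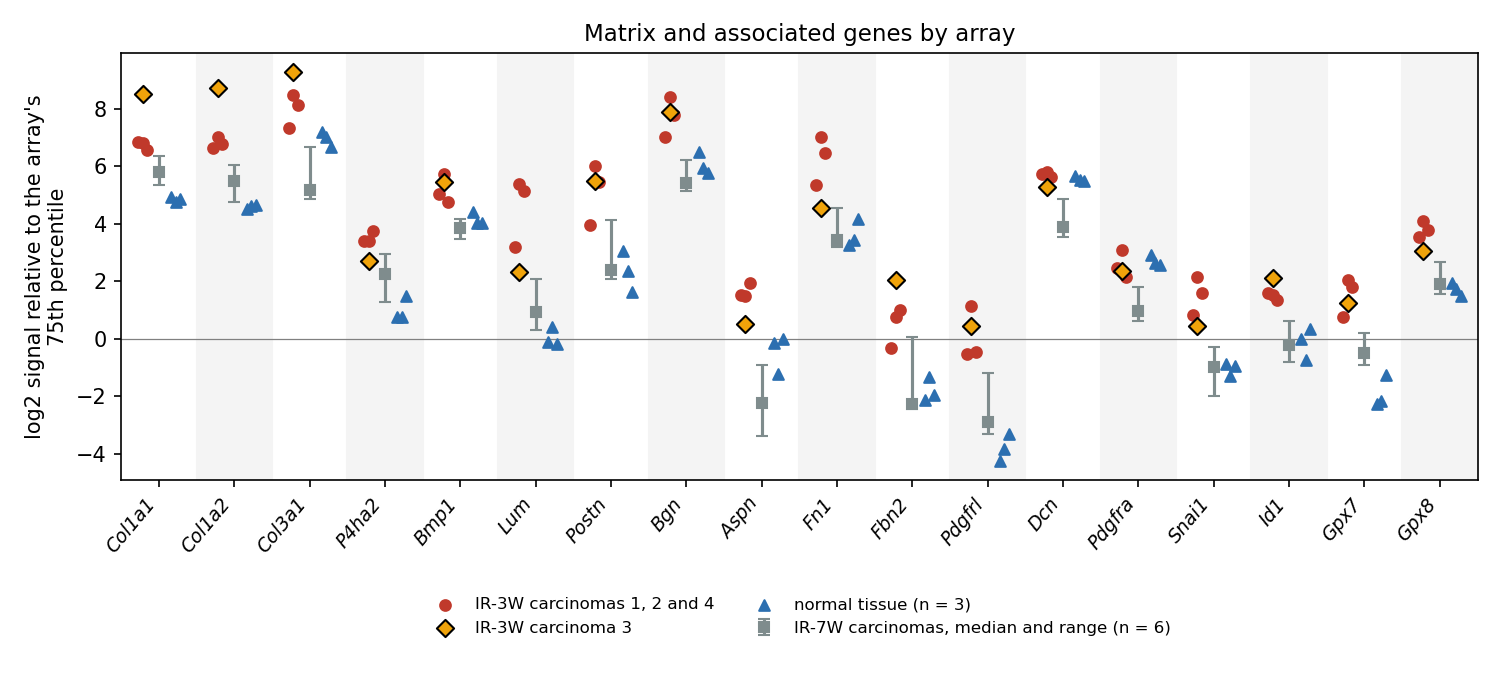
Log2 signal relative to each array's 75th percentile for matrix and associated genes, with IR-3W carcinomas left, IR-7W carcinomas (median and range, n = 6) in the middle and normal tissue right. Dcn lies at 5.28 to 5.79 in IR-3W carcinomas and 5.50 to 5.66 in normal tissue, with IR-7W carcinomas below both.

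The mammary transcription factor list, which also holds the secreted peptide Pthlh, and the TGF-beta and BMP list gave few calls. Among genes with a symbol 6.5% were called higher and 7.44% lower. Of 30 genes of the first list, 2 (6.67%) rose and 1 (3.33%) fell, with counts of 3 and 3 without carcinoma 3. Of 30 TGF-beta and BMP genes, 3 (10%) rose and 2 (6.67%) fell, with counts of 5 and 2 without carcinoma 3. Snai1, a repressor of E-cadherin, had 0.83, 1.59, 0.45 and 2.14 in the carcinomas and -0.86, -1.30 and -0.94 in normal tissue (difference 2.29 ± 0.45, adjusted p = 0.00487), and was 2.29 above IR-7W carcinomas (adjusted p = 0.0239). Its other probe rose by 1.12. Id1, an inhibitor of helix-loop-helix factors and a target of BMP signalling, had 1.61, 1.36, 2.11 and 1.54 in the carcinomas and 0.00, -0.74 and 0.34 in normal tissue (1.79, adjusted p = 0.00933). It was 1.81 above IR-7W carcinomas (adjusted p = 0.0355), and its call against normal tissue was lost without normal tissue 2 (adjusted p = 0.0554).

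Of 16 Notch pathway genes, 4 (25%) rose and 0 fell, against 6.5% and 7.44% of genes with a symbol. The median was 0.18, with 9 positive and 7 negative differences. Without carcinoma 3 the counts of calls were 5 and 1. Among the called members, only Notch3 kept the call with normexp. The receptor Notch3 had 5.13, 6.59 and 4.97 in carcinomas 2, 3 and 4 and 0.84, 2.22 and 2.27 in normal tissue (difference 3.79 ± 0.47, adjusted p = 0.000299). Carcinoma 1 was left out because its spot was flagged. Of 24 Wnt genes, 1 rose and 0 fell. Without carcinoma 3, 8 rose and 2 fell, against 11% and 8.63% of all genes. The 1 was the ligand Wnt5a, which was not well above background in normal tissue and was at least 4.73-fold higher (adjusted p = 0.000497). Vangl2, a planar polarity protein that acts with Wnt5a, was at least 6.73-fold higher (adjusted p = 7.51e-05), and Efnb1, an ephrin, at least 5.10-fold higher (adjusted p = 3.88e-06). With normexp the calls for Wnt5a (adjusted p = 0.231) and Vangl2 (adjusted p = 0.121) were lost. The normexp log2 differences of Wnt5a (0.80), Vangl2 (0.87) and Efnb1 (0.95) were smaller than their bounds. The other probe of Vangl2 differed by 0.61, and the mean over its probes by 2.43.

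Pthlh, the parathyroid hormone-related peptide that signals between mammary epithelium and mesenchyme, had 2.16, 4.09, 5.74 and 3.14 in the carcinomas and 0.89, -0.44 and -0.55 in normal tissue (3.81, adjusted p = 0.0135). The call was lost without normal tissue 2 (adjusted p = 0.0583) or 3 (0.0512). Among 31 immediate early genes, 2 (6.45%) rose and 2 (6.45%) fell, near the 6.5% and 7.44% of genes with a symbol. Egr2 had 1.12, 0.08, 0.97 and 0.38 in the carcinomas and -1.64, -1.95 and -1.53 in normal tissue (2.34, adjusted p = 0.001). Jun, a subunit of AP-1, rose by 1.23 (adjusted p = 0.00788), by 0.82 with array weights. Myc, the growth-promoting transcription factor, went the other way, with 2.93, 3.64, 2.91 and 2.95 in the carcinomas and 4.02, 4.49 and 4.93 in normal tissue (-1.37, adjusted p = 0.00646). Its call was lost in the fit of the 7 arrays alone (adjusted p = 0.0542).

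Cell cycle genes lay above normal tissue in sign but rarely passed the test. Of 36 tested, 35 had a positive difference, 3 (8.33%) rose and 0 fell, with a median of 1.07. The difference was positive in 12571 of 25343 genes tested and in 4350 of 10515 genes with a symbol. Called higher were 9.25% of all genes and 6.5% of genes with a symbol. The medians were 0.27, 2.33, 0.81 and 1.08 in the 4 carcinomas, highest in carcinoma 2, and without carcinoma 3 the count was 1. Ccnb1, the mitotic cyclin, had 1.05, 3.35, 1.65 and 2.03 in the carcinomas and 1.54, 0.05 and 1.91 in normal tissue (0.85, adjusted p = 0.376). Cks2, a partner of cyclin-dependent kinases, had -1.39, 0.01, -0.50 and -1.11 in the carcinomas and -5.34, -5.83 and -2.88 in normal tissue, with 1 of 3 normal tissues well above background (3.94, adjusted p = 0.00168). With normexp that call was lost (adjusted p = 0.0916).

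Genes of the response to DNA damage and of DNA repair were looked at because the rats had been irradiated. Cdkn1a, the cell cycle inhibitor p21, had 2.80, 2.00, 2.14 and 1.39 in the carcinomas and 1.60, 1.44 and 0.94 in normal tissue (0.75, adjusted p = 0.242). Its other probe, not well above background in any normal tissue, differed by 1.90, and the mean over its probes by 1.33 (adjusted p = 0.0901). Mdm2, a ubiquitin ligase, rose by 1.11 (adjusted p = 0.038), but its other probe differed by -0.35. The call for Mdm2 was lost with the mean over probes (adjusted p = 0.381), with normexp (0.136), in the fit of the 7 arrays alone (0.108) and without any of 5 single arrays (0.0588 to 0.148).

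Of 34 DNA repair genes, 3 (8.82%) rose and 5 (14.7%) fell, against 6.5% and 7.44% of genes with a symbol. Parp1, a sensor of strand breaks, had 4.56, 4.78, 4.57 and 4.51 in the carcinomas and 5.62, 5.55 and 5.82 in normal tissue (difference -1.06 ± 0.19, adjusted p = 0.00238). Its other probe fell by 0.57, and the call was lost in the fit of the 7 arrays alone (adjusted p = 0.0519). Xrcc1, a scaffold of single-strand break repair that Parp1 recruits, fell by 1.0 (adjusted p = 0.0212). That call was lost with normexp (adjusted p = 0.171), in the fit of the 7 arrays alone (0.114) and without carcinoma 4 or any normal tissue (0.0534 to 0.0654). Xrcc5, the Ku80 subunit of end joining, had -0.90, -0.82, -1.68 and -0.91 in the carcinomas and -2.67, -2.12 and -2.15 in normal tissue (1.23, adjusted p = 0.0117). It was lost with normexp (0.20, adjusted p = 0.703), in the fit of the 7 arrays alone (0.0671) and without normal tissue 1 (0.0604).

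Of 39 antioxidant genes tested, 4 (10.3%) rose and 5 (12.8%) fell. Among genes with a symbol 6.5% were called higher and 7.44% lower, and among all genes 9.25% and 5.35%. Nfe2l2, the NRF2 factor that drives many of them, had 3.31, 3.26, 2.59 and 3.11 in the carcinomas and 1.0, 0.98 and 1.40 in normal tissue (difference 1.94 ± 0.23, adjusted p = 0.000159). Gpx7 and Gpx8 are peroxidases of the endoplasmic reticulum that help proteins form disulphide bonds. Gpx7 had 0.77, 1.80, 1.26 and 2.06 in the carcinomas and -2.26, -2.15 and -1.27 in normal tissue (3.37, adjusted p = 9.91e-05), and was 1.94 above IR-7W carcinomas (adjusted p = 0.0225). Gpx8 rose by 1.89 (adjusted p = 0.00133) and was 1.63 above IR-7W carcinomas (adjusted p = 0.0225). Sod3, the extracellular superoxide dismutase, had 2.17, 2.68, 2.41 and 3.23 in the carcinomas and 4.16, 4.03 and 4.20 in normal tissue (-1.51, adjusted p = 0.00223).

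Of 29 proteasome genes, 3 (10.3%) rose and 0 fell, although the median was -0.27. Called higher were 9.25% of all genes and 6.5% of genes with a symbol. Psma2 and Psmb1, core subunits, rose by 1.64 (adjusted p = 0.00338) and 1.11 (adjusted p = 0.00374), and Psmd6, a cap subunit, rose by 1.76 (adjusted p = 0.000109). The call for Psmb1 was lost in the fit of the 7 arrays alone (adjusted p = 0.0585), and that for Psmd6 with normexp (adjusted p = 0.0671). Psmb8, an immunoproteasome subunit counted with the interferon genes, fell by 0.97 (adjusted p = 0.0108). It was lost without normal tissue 1 (adjusted p = 0.0545), with normexp (0.0733) and in the fit of the 7 arrays alone (0.0872).

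Some of the highest calls fell in no list with many others. Nudt9, a hydrolase of ADP-ribose, had 1.68, 0.72, 2.16 and 0.70 in the carcinomas and -3.24, -2.54 and -2.07 in normal tissue (3.93, adjusted p = 3.4e-05). Exosc7, a subunit of the RNA exosome, had 1.06, 0.72, 1.38 and 0.29 in the carcinomas and -3.98, -3.13 and -1.91 in normal tissue (3.86, adjusted p = 0.000104). Both were well above background in 2 of 3 normal tissues. Cpox, an enzyme of haem synthesis, and Pcsk7, a proprotein convertase, were not well above background in normal tissue. They were at least 5.34-fold (adjusted p = 1.96e-05) and at least 5.10-fold (adjusted p = 3.2e-05) higher in the carcinomas. With normexp both calls were lost (adjusted p = 0.0771 for Cpox and 0.0748 for Pcsk7). Their normexp log2 differences, 0.87 and 0.84, were smaller than the bounds. Psph and Aldh18a1, enzymes of serine and proline synthesis, rose by 2.11 (adjusted p = 0.00155) and 2.29 (adjusted p = 0.00354).

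Cpa1, a digestive carboxypeptidase best known from the pancreas, was not well above background in any carcinoma (-7.60, -8.10, -5.20 and -7.53) and had 1.86, 1.77 and 1.48 in normal tissue. It was at least 119-fold lower in the carcinomas (adjusted p = 4.48e-06), whereas its normexp difference of -3.39 on the log2 scale was smaller than that bound. Cxcl17, a mucosal chemokine, had -2.32, -1.86, -2.22 and -1.54 in the carcinomas and 0.86, 1.36 and 0.12 in normal tissue (-2.76, adjusted p = 0.00541).

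The T and NK cell and macrophage lists gave calls no more often than genes with a symbol. Of 27 T and NK cell genes 2 (7.41%) fell and 0 rose, against 7.44% and 6.5% of genes with a symbol. The difference was negative in 25 of the 27 (median -0.87) and in 6165 of 10515 genes with a symbol. Of 24 macrophage genes 1 (4.17%) rose and 1 (4.17%) fell. Of 9 B and plasma cell genes 2 (22.2%) fell and 0 rose, with a median of -1.51. With normexp all of these calls were lost. Cd3d, a chain of the T cell receptor complex, had 2.13, -0.33, 0.88 and 1.22 in the carcinomas and 2.39, 1.96 and 1.89 in normal tissue (adjusted p = 0.239). Tyrobp, a myeloid signalling adaptor, had 5.73, 4.17, 4.04 and 5.03 in the carcinomas and 5.56, 5.22 and 5.60 in normal tissue (adjusted p = 0.258). Neither passed, and both were highest in carcinoma 1. The summed signal of the mast cell list was 6.15 to 43.8 in the carcinomas and 12.2 to 15.7 in normal tissue, and that of skeletal muscle 8.18 to 33 and 8.19 to 14. Both were highest in carcinoma 1. The part of these cells in the other results was not tested.

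Of 19 vessel genes, 2 (10.5%) fell and 0 rose, and without carcinoma 3, 7 of the 19 fell, against 8.63% of all genes. The summed signal was 23.7 to 138 in the carcinomas and 88.5 to 102 in normal tissue, highest in carcinoma 3. Emcn, an endothelial sialomucin, had -0.74, -1.04, 0.84 and 0.22 in the carcinomas and 0.71, 1.10 and 1.31 in normal tissue. It did not pass over the 4 carcinomas (-1.22, adjusted p = 0.0709) and passed without carcinoma 3 (-1.56, adjusted p = 0.0125). Sox17, an endothelial transcription factor, had -3.93, -3.87, -1.13 and -2.13 in the carcinomas and -0.20, -0.16 and -0.58 in normal tissue (-2.45, adjusted p = 0.0308). Its call was lost without carcinoma 1 or 2 or any normal tissue (0.0623 to 0.101) and in the fit of the 7 arrays alone (0.0737). Sox10, found in Schwann cells and in mammary epithelium, had 3.66, 1.80, 5.27 and 3.50 in the carcinomas and 5.22, 5.45 and 5.31 in normal tissue (-1.77, adjusted p = 0.0704), and passed without carcinoma 3 (-2.34, adjusted p = 0.00657).

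The direction of a call was then compared between probes of the same gene. Where both probes were well above background on all 7 arrays, 79 genes called higher in IR-3W had 92 other probes, of which 54.3% had the same sign. The median difference was 1.52 for the probes used and 0.07 for the others. For the 155 genes called lower, 80% of 190 other probes had the same sign, with medians of -1.03 and -0.57. Among genes not called the share was 63%. For the 15 genes higher in IR-3W than in IR-7W, all of the 17 other probes had the same sign, with medians of 2.07 and 1.81. Among genes not called between the carcinoma groups the share was 72.2%.

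**Figure D5:**
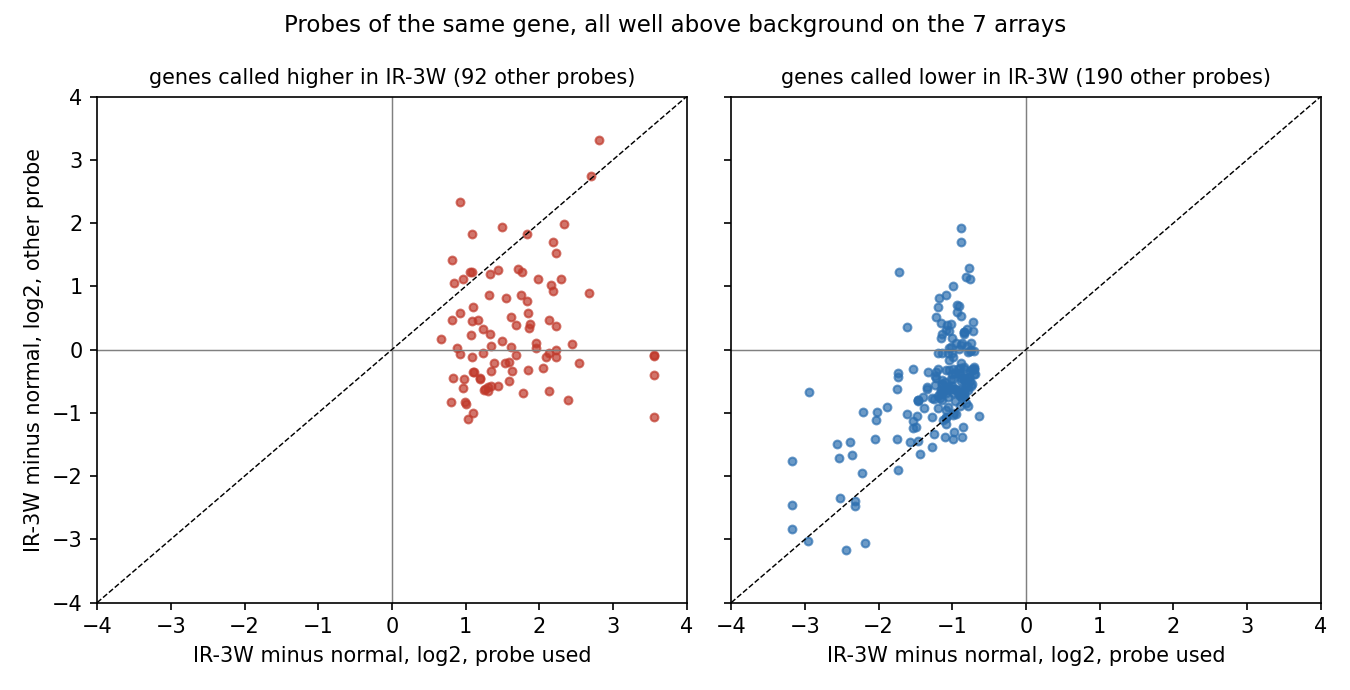
IR-3W minus normal difference (log2) of the probe used for a gene (horizontal) and of another probe of that gene (vertical), for genes called higher (left, 92 other probes) and called lower (right, 190 other probes), all well above background on the 7 arrays. The dashed line marks equal differences. The other probes of genes called higher scatter around 0 (median 0.07), and those of genes called lower lie mostly below 0 (median -0.57).

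The differences also followed signal level. Genes were ordered by their mean level and divided into 10 equal groups. The median difference was 0.37 in the group next to the dimmest and -0.23 in the ninth. Normexp moved the median of all genes to -0.21. It made the difference smaller in 80 of the 91 called genes named here, moved it by over 1.5 times in 40 of them, and ended 18 of the 91 calls. Among calls that were kept, it moved the lower genes Aqp7 (-3.22), Cidec (-4.10), Ces1d (-3.99), Ucp3 (-3.33), Cytl1 (-2.83), Npr3 (-2.53), Fmo1 (-2.51), Cyp4b1 (-2.37), Mrap (-2.35), Pparg (-2.02), Fmo2 (-1.96), Cxcl17 (-1.79), Cnn1 (-1.31), Sox17 (-1.04) and Ephx2 (-1.01) by over 1.5 times. The higher genes it moved as far were Fibin (2.20), Nudt9 (2.15), Exosc7 (2.04), Pdgfrl (1.78), Sirt5 (1.65), Egr2 (1.46), Psph (1.16) and Efnb1 (0.95).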

How the data were processed

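RNA of 3 normal mammary tissues and of carcinomas after irradiation at 3 weeks (4) or 7 weeks (6) was read on Agilent 1-colour rat arrays with 41012 probes. The deposited intensity values are background-subtracted signals from Feature Extraction 10.7.3.1, per the file headers and the submitters' processing notes, with a grid on genome build rn4. For each array, log2 of the signal minus the array's 75th percentile was taken. Control spots and spots flagged as outliers were left out, and probes well above background on at least 3 of 13 arrays were kept. Probe names were updated through RefSeq accessions (GRCr8); 16815 of 41012 probes matched a symbol and 0 matched several genes. The probe with the highest mean stood for its gene.

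Differences were tested with limma 3.58.1 in R 4.3.3 (lmFit and eBayes over all 13 arrays, two-sided, Benjamini-Hochberg over 25343 genes, adjusted p under 0.05). Where every array of a group left a gene under the well-above-background limit, its fold is a lower bound: the mean of the brighter group against the mean, over the dim arrays, of the higher of the gene's own value and the lowest signal among probes well above background. Such a bound holds only under this processing. With normexp the difference of every gene given a bound was smaller than that bound. Precision is limited by how few arrays there are. The authors' deposited log2 table matched these log2 values minus the mean of the 3 normal arrays (99.4 to 99.6% of values within 0.01 after a constant shift per array) and left 29.4 to 52.2% of cells blank; it served as an alternative. Other alternatives were normexp background correction (offset 50), which used the median spot and background signals, quantile normalization, other filters, slide as a block, array weights, the 7 arrays alone, the mean over probes, a replicate block and leaving out each array. Background correction and scaling set how dim genes compare between arrays of different brightness.

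On data simulated for IR-3W against normal (24876 genes), 10% of genes changed by 1 on the log2 scale were called, 56% of those changed by 2, 68% by 3 and 92% by 4, and 3 of 24676 unchanged genes were called. The simulation changed 50 genes at each size and gave each gene independent noise of 1 spread in all groups. It held no slide, scan or brightness effect and far fewer changed genes than the data gave calls. These shares therefore may not hold for the real arrays. Deviations of same-numbered arrays from their group means correlated at 0.0102 to 0.0793 between IR-3W and normal arrays. Between IR-3W and IR-7W arrays they correlated at -0.207 to -0.0337. The numbers were not used to pair samples in the main fit. With so few pairs and no differently numbered pairs for comparison, these values cannot tell whether the numbers link samples.

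The genes named were, among genes with a symbol, the 20 highest and 20 lowest calls whose groups do not overlap, up to 4 called members with the smallest p and 2 members with the highest level in each of 54 gene lists, a set of cell type markers and the 10 genes that varied most over the carcinomas; part of them is printed, and some are not reported here. Npr3, Pparg, Pnpla2, Cd36, Hadha, Eci1, Cat, Cpt1a, Cyp4b1, Csn1s2b, Csn3, Aspn, Fn1, Ccnb1, Xrcc1, Cdkn1a, Myh11, Mylk and Lmod1 were chosen after their values were seen. The members, lists and rules were chosen with earlier results of these data known. Promoter sequences are RefSeq's for GRCr8, matched by symbol.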

Additional observations from a re-analysis of the deposited data

Results flagged for a closer look

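Among 122 genes looked at, 10 had 1 IR-3W carcinoma whose gap to the nearest of the others exceeded Dixon's critical value for a group of 4, as a share of the range. Chance gives such a gap in about 1 in 20 groups of unselected values, a rate that does not apply here, since some of these genes were chosen for their spread over the carcinomas or after their values were seen. Carcinoma 3 was the array apart in 9 of the 10. It was highest in Aqp7 (-0.85), Fabp4 (5.26), Dgat1 (3.26), Cyp4b1 (-0.21), Csn1s2b (8.70), Pcp4 (7.07) and Col1a1 (8.52), and lowest in Hadhb (-0.40) and Xrcc5 (-1.68). Carcinoma 2 was highest in Myc (3.64).

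A further 16 genes differed between IR-3W and IR-7W carcinomas in the test of that difference. Of these, Cnn1 was lower in IR-3W (-2.27). Higher in IR-3W were the matrix genes Col3a1 (2.90), Bmp1 (1.39), Lum (3.01), Postn (2.49), Bgn (2.19), Aspn (3.50), Fn1 (2.25), Fbn2 (2.65) and Dcn (1.55), the fibroblast receptor Pdgfra (1.46) and the receptor-like Pdgfrl (2.72). The others were the transcription regulators Snai1 (2.29) and Id1 (1.81) and the peroxidases Gpx7 (1.94) and Gpx8 (1.63). All values are log2 differences.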

How the results depend on the processing

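Of 3699 genes called against normal tissue, the count became 1188 with normexp, 1750 with the 7 arrays alone, 9683 with array weights, 11060 with no filter on dim probes (25% of them higher, against 63.3%) and 21 with the replicate block. The median of all genes moved to -0.21 with normexp, -0.39 with no filter and -0.15 with probes well above background on all 7 arrays. Leaving out 1 array gave 2101 to 4986 calls, most without carcinoma 3 (4986) and fewest without normal tissue 1 (2268) or 2 (2101). Between the carcinoma groups the 187 calls became 7464 with normexp, where the median of all genes was 0.39, 107 with no filter, 336 with slide as a random block, 1680 with array weights and 0 within the shared slide. The replicate block gave 0 (1566 at an unadjusted p under 0.05 in limma), and leaving out 1 array gave 29 to 583. The causes were not tested.

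Lower fat cell genes went to 2 and lower fatty acid oxidation genes to 1 with the replicate block, and fatty acid oxidation had 9 with the 7 arrays alone. Higher collagen genes numbered 8 with no filter, 3 with the 7 arrays alone, 8 with slide as a block, 17 with array weights, 0 with the replicate block and 3 to 8 without 1 array. Higher proteoglycan genes numbered 4 with the 7 arrays alone, 14 with array weights, 0 with the replicate block and 4 to 9 without 1 array. The median spread was 0.47 to 0.66 without 1 carcinoma.

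Of 91 called genes named in the text, the replicate block kept 9, and quantile normalization, no filter and slide as a block kept all 91. Array weights lost the call of Lmod1 (-0.98, adjusted p = 0.123). Signs turned only in genes that were not called. With array weights they did so in Csn1s2a (0.24), Csn1s2b (-3.23), Krt8 (-0.07), Krt19 (-0.33), Cdh1 (-0.03) and Pdgfra (0.17), with the replicate block in Krt14 (-0.15) and Dcn (-0.01) and with the mean over probes in Tp63 (-0.05). Without 1 array the ranges were -0.43 to 0.86 in Csn1s1, -2.65 to 0.79 in Csn1s2a, -3.84 to 1.79 in Csn1s2b, -0.85 to 0.25 in Lalba, -0.10 to 0.34 in Krt19, -0.15 to 0.58 in Krt14, -0.23 to 0.71 in Tp63 and -0.01 to 0.16 in Dcn. Csn1s2b, blank on most arrays of the deposited table, differed there by 13.41. Depth here means signal over background: 846 genes called higher failed that limit on all 3 normal arrays.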
